A study of Mus musculus with 6 samples.

Results

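The 9 genes grouped here as dystrophin complex and membrane repair were described across 3 mouse tissues: Dmd, Sgca, Sgcb, Sgcd, Cav3, Dysf, Capn3, Trim72 and Ano5. They were chosen by gene symbol, matched to the deposited tables through the Ensembl identifier, and make up 9 of the 20672 genes in any of the 3 count tables and of the 16964 genes in all 3. All 9 passed the filter on low counts, so every one was tested. Most of their protein products serve the plasma membrane of the muscle fibre, while calpain-3, from Capn3, is a muscle protease that binds titin.

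Dystrophin anchors the actin cytoskeleton to a membrane complex of dystroglycan, sarcoglycans and sarcospan, which binds laminin outside the fibre. A separate set of proteins, among them dysferlin, caveolin-3, MG53 and anoctamin-5, takes part in sealing tears of the same membrane. Loss of most of these genes causes a muscular dystrophy in humans, and in healthy tissue several of them are largely restricted to striated muscle.

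The series title concerns the effect of letrozole, an aromatase inhibitor that lowers oestrogen synthesis, on the infrapatellar fat pad of female mice. RNA sequencing gave 6 libraries, 2 from each of 3 tissues. These were the infrapatellar fat pad (the fat body beneath the kneecap), the Achilles tendon, and the rectus femoris, a thigh muscle. The comparison was therefore between tissues, and the labels name no untreated counterpart.

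Both fat pad libraries carry the drug's name in their titles, and the titles of the tendon and rectus femoris libraries do not state a drug. The titles of the fat pad and tendon libraries also end in the term combined, which the labels do not explain. The tissue label reads fat pad for all 6 libraries, so groups were taken from the treatment label, which names the 3 tissues. Counts were listed for 20516 genes in the fat pad, and for 17120 genes in the tendon and in the rectus femoris. Tissue, any drug exposure and any difference in processing cannot be told apart in comparisons with the fat pad. Strain, age, dose and duration do not appear in the labels. Whether the 2 libraries of each tissue represent different animals, or differ in treatment, is not stated. The authors deposited fold changes between the 2 libraries of each tissue. The p-values here treat these libraries as replicates. They reflect library-to-library spread that may be technical only or may hold a difference in treatment.

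Total counts ran from 56216295 to 106319037 per library. In sum, adipocyte markers were highest in the fat pad, tenocyte markers in the tendon and fast-fibre markers in the rectus femoris. Single genes did not all follow. The 10 adipocyte markers summed to 73886 and 80709 CPM (read counts scaled to the size of the library) in the fat pad. Their sums were 4300 and 1005 CPM in the Achilles tendon, and 1106 and 1569 CPM in the rectus femoris. By the edgeR test described below, fat pad levels were called higher for 9 genes against the rectus femoris and 6 against the tendon. Plin4 ran the other way in both (log2 fold change -1.32 and -1.01), as did Lep against the tendon (-1.19), none of them called. The 9 tenocyte markers summed to 1057 and 657 CPM in the fat pad, 33335 and 29178 CPM in the tendon, and 3488 and 2392 CPM in the rectus femoris. All 9 tenocyte markers were called higher in the tendon against either other tissue. Between the other tissues, Comp was called with a log2 fold change of 1.67 for fat pad over rectus femoris. Muscle markers were present in every library. The 13 fast-fibre markers, myosin heavy chain Myh4 among them, summed to 271 and 271 CPM in the fat pad, 35328 and 87035 CPM in the tendon, and 378614 and 329656 CPM in the rectus femoris. The 9 slow-fibre markers summed to 52.2 and 44.7 CPM in the fat pad, 12488 and 6473 CPM in the tendon, and 113 and 190 CPM in the rectus femoris. In both tendon libraries the fast-fibre sum was above the tenocyte sum, and slow-fibre sums were highest in the tendon. No gene of these lists was at 0 in any library. The part that muscle fibres in the tendon and fat pad libraries have in the values given here was not tested. In bulk tissue, fewer cells of a type and less RNA per cell cannot be told apart.

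A limit applies to values within the tendon and the rectus femoris. The authors' TPM (read counts per transcript length, scaled to the library) followed the counts in the fat pad, where the library 2 over library 1 log2 ratios of counts and TPM had a Pearson r of 0.98 across 13021 genes. The same r was -0.22 across 13304 genes in the tendon and -0.18 across 12259 genes in the rectus femoris. Genes are not independent replicates, and these values are descriptions. Counts are used throughout, scaled by the trimmed mean of M values (TMM) to CPM, and TPM is named where it gives another answer.

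Sequences just upstream of some of the members' starts are shown first. RefSeq's GRCm38.p6 annotation gave 12 starts for the 9 members, and the 250 bases before each were searched on both strands for CAGCTG and also CAGGTG (both bound by myogenic basic helix-loop-helix factors), the MCAT element CATTCC, the Sp1-type element GGGCGG, the CArG box and the MEF2 site. The 5 windows shown hold a match to a motif of muscle genes (Dmd start 1, Capn3 start 1 and Cav3) or to GGGCGG (Dmd start 2 and Sgcb), with motif matches in capitals. The windows of Sgcd (GGGCGG and CATTCC), Dysf start 2 (3 matches to GGGCGG) and Ano5 (CAGGTG) also hold matches and are not printed. Whether these motifs have a part in the levels was not tested. They are Dmd start 1 (chrX:82948620-82948869, plus strand), Dmd start 2 (chrX:85048045-85048294, plus strand), Sgcb (chr5:73647738-73647987, minus strand), Capn3 start 1 (chr2:120463343-120463592, plus strand) and Cav3 (chr6:112459255-112459504, plus strand).
Dmd start 1: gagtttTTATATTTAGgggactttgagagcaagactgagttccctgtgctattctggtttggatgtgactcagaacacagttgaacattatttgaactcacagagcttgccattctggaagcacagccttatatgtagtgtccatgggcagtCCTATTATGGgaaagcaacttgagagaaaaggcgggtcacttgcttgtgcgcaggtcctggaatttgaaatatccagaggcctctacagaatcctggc
Dmd start 2: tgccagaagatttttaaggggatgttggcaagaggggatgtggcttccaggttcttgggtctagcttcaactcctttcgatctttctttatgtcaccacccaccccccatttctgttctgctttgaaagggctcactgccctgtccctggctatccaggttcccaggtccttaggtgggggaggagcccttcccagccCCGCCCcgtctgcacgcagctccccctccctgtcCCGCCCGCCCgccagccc
Sgcb: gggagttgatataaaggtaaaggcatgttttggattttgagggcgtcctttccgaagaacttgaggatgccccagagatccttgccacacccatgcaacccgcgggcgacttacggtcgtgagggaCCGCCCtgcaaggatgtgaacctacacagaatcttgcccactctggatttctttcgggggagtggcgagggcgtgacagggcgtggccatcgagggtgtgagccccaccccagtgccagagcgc
Capn3 start 1: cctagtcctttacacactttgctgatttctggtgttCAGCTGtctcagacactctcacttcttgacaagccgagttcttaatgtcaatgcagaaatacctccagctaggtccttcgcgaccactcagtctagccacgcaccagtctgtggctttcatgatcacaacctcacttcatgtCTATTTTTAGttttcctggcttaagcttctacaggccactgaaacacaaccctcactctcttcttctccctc
Cav3: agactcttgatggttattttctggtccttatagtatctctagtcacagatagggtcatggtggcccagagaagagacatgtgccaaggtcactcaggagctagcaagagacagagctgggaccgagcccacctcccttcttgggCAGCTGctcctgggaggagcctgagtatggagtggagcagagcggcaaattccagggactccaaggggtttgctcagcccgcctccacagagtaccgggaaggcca

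The first Dmd window held a MEF2 site match and a CArG box match, and the first Capn3 window held a MEF2 site match and CAGCTG. MEF2 site matches stood in 2 of the 12 member windows and in 2.92% of all 32841 windows of the same length. The CArG box stood in 1 of 12 and in 1.47% of all windows. CAGCTG was found in 2 of 12 (Capn3 start 1 and Cav3), against 13.0% of all windows. GGGCGG stood in 4 of 12, against 32.7% of all windows, and the 4 were Sgcb, Sgcd, Dmd start 2 and Dysf start 2. In Dmd start 2 it matched 3 times, and a pair of these matches overlap. CAGGTG stood in the Ano5 window alone, against 17.2% of all windows, and CATTCC in the Sgcd window alone, against 12.6%. Sgca, Trim72, the first Dysf start and the second Capn3 start held none of the 6 motifs. The Sgcb window had a ratio of observed to expected CpG of 0.665, against a median of 0.374 over all windows. A match is a run of letters and not a measured binding site, and no match says only that these letters are not in the window.

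Relative to the rectus femoris, all 9 members were lower in the fat pad. Each passed edgeR's quasi-likelihood test at a Benjamini-Hochberg adjusted threshold of 0.05, in a comparison where 59.4% of the 15856 genes tested were called, 29.6% lower and 29.8% higher. The median log2 fold change was -4.80 over the 9 members and 0.14 over all genes. By size, Sgcb, Sgcd and Dmd differed by 2.65-fold to 4.42-fold, Dysf and Cav3 by 20.6-fold and 27.9-fold, and Sgca, Capn3 and Ano5 by 178-fold to 961-fold, while Trim72 had no counts in the fat pad. All 13 fast-fibre markers were lower in the same comparison, with a median log2 fold change of -9.98, and so were 8 of the 9 slow-fibre markers, with a median of -3.05. Both fat pad libraries were below both rectus femoris libraries for all 9 members, as they were for 39.7% of all genes.

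Between the fat pad and the Achilles tendon, 8 of the 9 members were lower in the fat pad and Sgcb was not called. In that comparison 58.5% of genes were called, 31.4% lower and 27.2% higher. The median log2 fold change was -3.65 over the members and -0.01 over all genes. Both fat pad libraries lay below both tendon libraries for 8 members, and for 41.1% of all genes. The comparisons share libraries, since the fat pad serves both of those above, so their values are given side by side.

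In the Achilles tendon, 5 of the 9 members were lower than in the rectus femoris: Sgca, Sgcb, Capn3, Cav3 and Trim72. In that comparison 26.0% of genes were called, 12.7% lower and 13.3% higher. The median log2 fold change was -1.08 over the members and 0.10 over all genes. Both tendon libraries were below both rectus femoris libraries for all 9 members, against 33.7% of all genes. The count depended on single libraries: 2 members were called without tendon library 1, 1 without rectus femoris library 1 and 0 without rectus femoris library 2, where edgeR gave 5 of 9 members an unadjusted p below 0.05. The calls over all genes fell with them, to 1816 of 16256 without tendon library 1, 43 of 16351 without rectus femoris library 1 and 19 of 16343 without rectus femoris library 2, against 4127 of 15856 with all libraries. Scaling by total counts in place of TMM gave 2 called. For the 5 genes called here, only the loss without rectus femoris library 2 is named below. As the counts above show, calls were also lost without other libraries and with total counts. Total counts move the median gene by 0.51 on the log2 scale between fat pad and rectus femoris, by -0.21 between fat pad and tendon, and by 0.73 between tendon and rectus femoris, and directions given here are relative to those shifts. TPM moves it by -0.43, -0.81 and 0.38 in the same 3 comparisons.

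**Figure D1:**
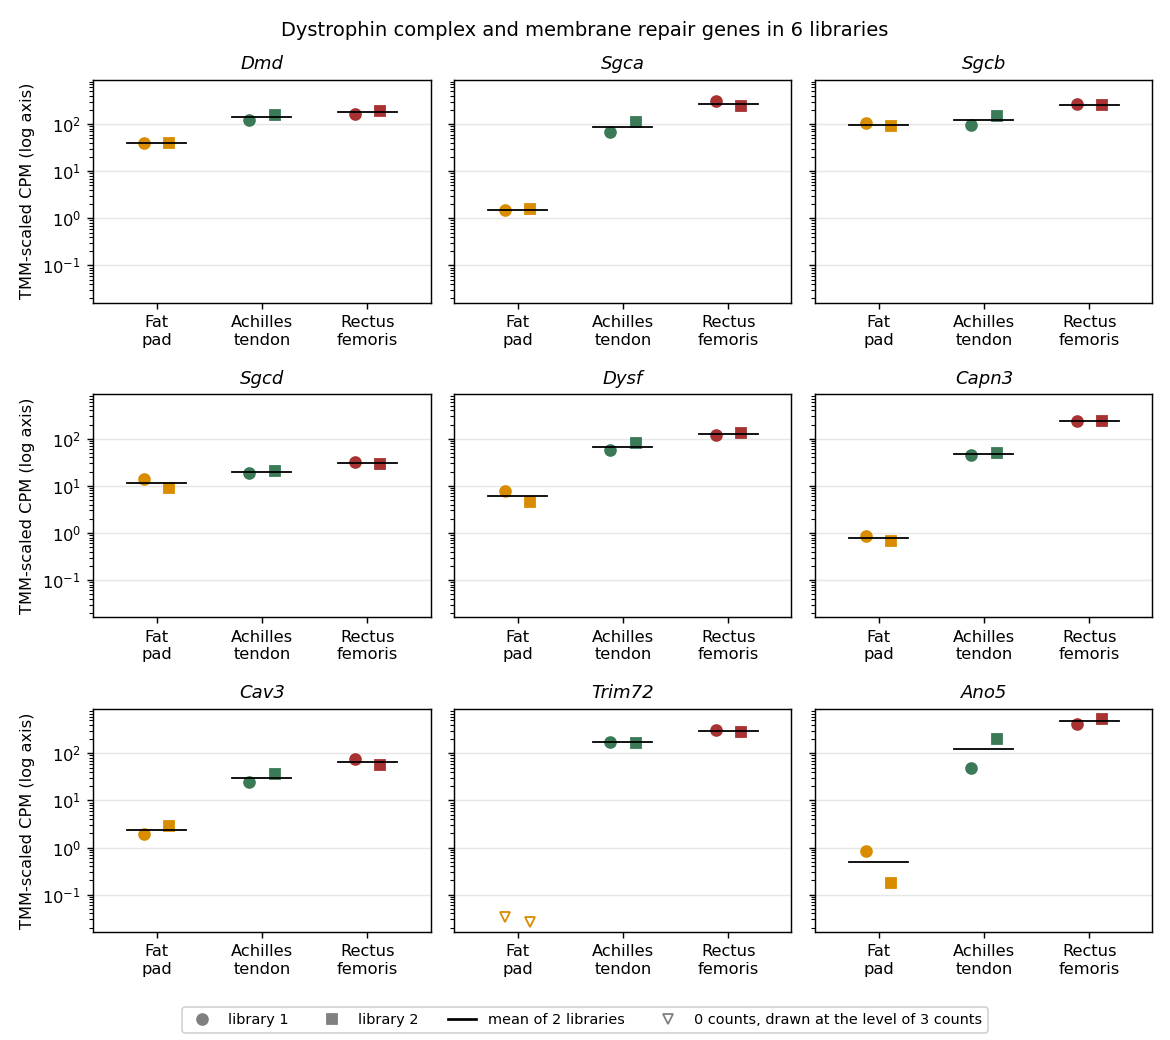
Level of each of the 9 genes in each library, in TMM-scaled CPM on a log axis, for the fat pad, the Achilles tendon and the rectus femoris; circles are library 1, squares library 2, lines the mean, and open triangles 0 counts drawn at the level of 3 counts. The rectus femoris libraries are above the fat pad libraries for every gene, and Trim72 is at 0 in both fat pad libraries.

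**Figure D2:**
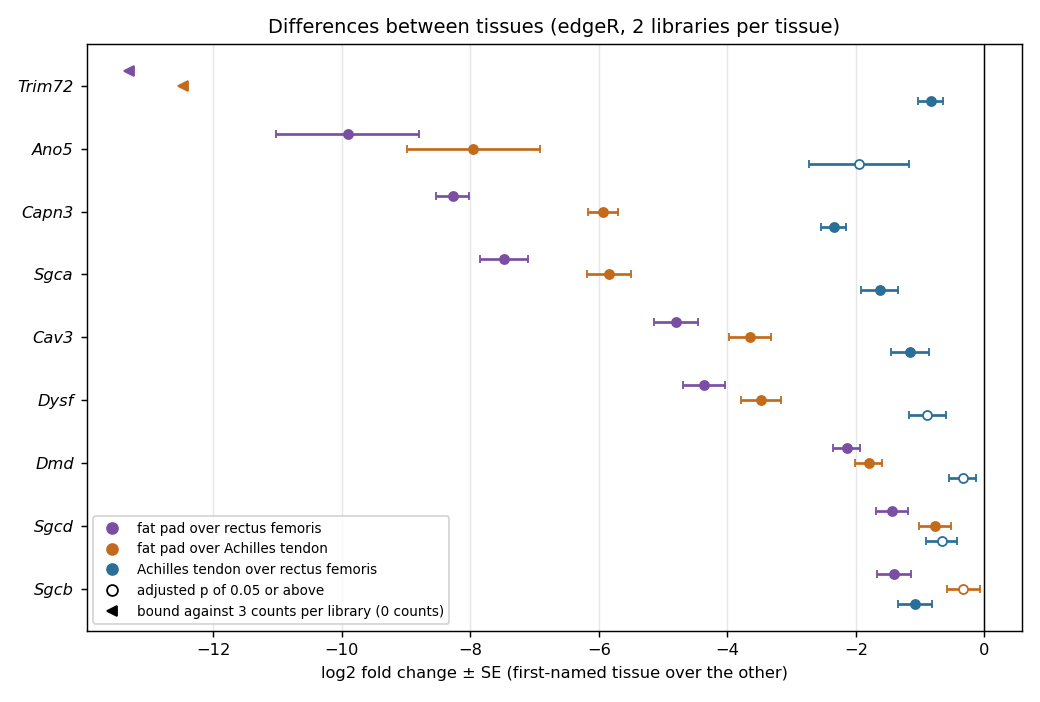
Log2 fold change of each gene in the 3 tissue comparisons from edgeR, with bars of ± 1 standard error; open circles did not pass the adjusted threshold and triangles are bounds. Differences from the rectus femoris range between -1.41 for Sgcb and -9.91 for Ano5 in the fat pad (Trim72, at 0 counts there, is shown as a bound), and between -0.34 for Dmd and -2.34 for Capn3 in the tendon.

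Dmd (ENSMUSG00000045103, chromosome X) encodes dystrophin, the cytoskeletal link of the complex, and short forms are made from internal promoters. It had 40.3 and 40.2 CPM in the fat pad, 123 and 158 CPM in the Achilles tendon, and 165 and 191 CPM in the rectus femoris. The 3 tissues did not overlap, and the fat pad libraries differed least from each other. Its log2 fold change was -2.14 ± 0.21 (SE) between fat pad and rectus femoris (edgeR adjusted p = 0.000203), which is 4.42-fold lower in the fat pad. Between fat pad and tendon it was -1.80 ± 0.21 (edgeR adjusted p = 0.000438). Tendon and rectus femoris differed by -0.34 ± 0.20, which was not called (edgeR adjusted p = 0.253). In the last comparison its sign turned with the scaling: it was 0.37 with total counts and 0.36 with TPM. The counts do not separate the forms of dystrophin.

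The sarcoglycans form a ring in the membrane that stabilises the complex. Sgca (ENSMUSG00000001508, chromosome 11) encodes alpha-sarcoglycan, the subunit most restricted to striated muscle. It had 135 and 178 counts in the fat pad, equal to 1.49 and 1.58 CPM, against 67.0 and 110 CPM in the tendon and 310 and 237 CPM in the rectus femoris. The fat pad libraries were lowest and the rectus femoris libraries highest, with no overlap. Its log2 fold change was -7.47 ± 0.37 between fat pad and rectus femoris (edgeR adjusted p = 3.95e-05), -5.84 ± 0.35 between fat pad and tendon (adjusted p = 6.26e-05) and -1.63 ± 0.29 between tendon and rectus femoris (adjusted p = 0.0128). The last of these calls was lost without rectus femoris library 2.

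Sgcb (ENSMUSG00000029156, chromosome 5) encodes beta-sarcoglycan, a core subunit that is also made outside muscle. It had 104 and 91.6 CPM in the fat pad, 95.8 and 150 CPM in the tendon, and 271 and 249 CPM in the rectus femoris. Fat pad and tendon overlapped, and the rectus femoris libraries were above both. Its log2 fold change was -1.41 ± 0.26 between fat pad and rectus femoris (edgeR adjusted p = 0.00335). Between fat pad and tendon it was -0.33 ± 0.26 (edgeR adjusted p = 0.307), and it turned to 0.02 without tendon library 2. In the authors' TPM it was -1.10 ± 0.19 (limma adjusted p = 0.00171), where the median gene was itself at -0.82, with 8056 of 14929 genes called lower and 1550 higher. Tendon over rectus femoris gave -1.08 ± 0.26 (edgeR adjusted p = 0.0278), a call lost without rectus femoris library 2.

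Sgcd (ENSMUSG00000020354, chromosome 11) encodes delta-sarcoglycan, the other core subunit. It had 13.7 and 9.05 CPM in the fat pad, 18.5 and 20.3 CPM in the tendon, and 32.6 and 28.9 CPM in the rectus femoris. The tissues did not overlap. The log2 fold change was -1.44 ± 0.25 between fat pad and rectus femoris (edgeR adjusted p = 0.0024) and -0.77 ± 0.25 between fat pad and tendon (adjusted p = 0.0312). The tendon call was lost in 5 of the 6 fits that left out 1 library: edgeR's adjusted p was 0.0950 without fat pad library 2, 0.0654 and 0.0919 without tendon library 1 or 2, and 0.0575 and 0.0564 without rectus femoris library 1 or 2. For tendon over rectus femoris the value was -0.67 ± 0.25 (edgeR adjusted p = 0.0857), and it was 0.06 with total counts and 0.13 with TPM.

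**Figure D3:**
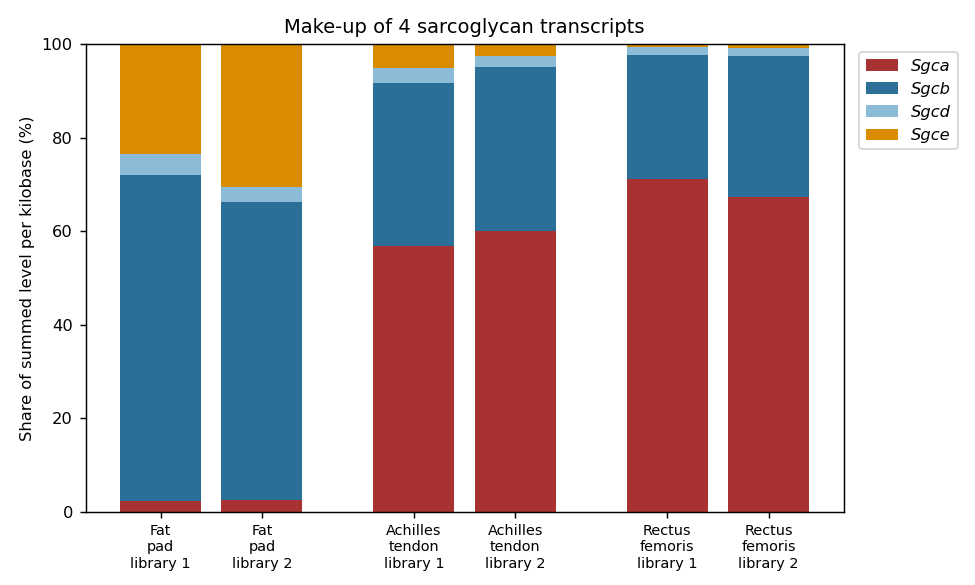
Share of the summed level of Sgca, Sgcb, Sgcd and Sgce, in CPM per kilobase of exon (%), for each library. Sgcb holds 69.7% and 63.7% in the fat pad libraries, and Sgca 71.1% and 67.3% in the rectus femoris libraries.

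Per kilobase of annotated exon, the makeup of the summed transcripts of Sgca, Sgcb, Sgcd and Sgce differed by tissue. The share of Sgcb was 69.7% and 63.7% in the fat pad, 34.8% and 35.01% in the tendon, and 26.6% and 30.2% in the rectus femoris. Sgca made up 2.33% and 2.57% in the fat pad, 56.9% and 60.05% in the tendon, and 71.1% and 67.3% in the rectus femoris. Sgce, which encodes epsilon-sarcoglycan and is made in many tissues, made up 23.5% and 30.6% in the fat pad, 5.04% and 2.61% in the tendon, and 0.676% and 0.803% in the rectus femoris. These shares have no test. With the authors' TPM, the fat pad shares were 81.9% and 78.5% for Sgcb and 12.4% and 16.9% for Sgce. Sgca held 0.894% and 1.03% of the fat pad TPM. With the authors' TPM, Sgca held 39.2% and 34.3% in the tendon, below Sgcb with 54.3% and 58.1%, and 42.7% and 43.5% in the rectus femoris, below Sgcb with 53.1% and 53.0%.

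Cav3 (ENSMUSG00000062694, chromosome 6) encodes caveolin-3, the muscle form of the protein that coats caveolae, and binds dysferlin and dystroglycan. It had 1.91 and 2.87 CPM in the fat pad, 24.04 and 36.0 CPM in the tendon, and 76.0 and 57.8 CPM in the rectus femoris. No library of a tissue fell in the range of another. The log2 fold change was -4.80 ± 0.34 between fat pad and rectus femoris (edgeR adjusted p = 6.69e-05) and -3.65 ± 0.32 between fat pad and tendon (adjusted p = 0.000162). Between tendon and rectus femoris it was -1.16 ± 0.29 (edgeR adjusted p = 0.0316), a call lost without rectus femoris library 2. With TPM it was 0.14 in that last comparison, the libraries having 218 and 195 TPM in the tendon and 178 and 197 TPM in the rectus femoris.

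Dysf (ENSMUSG00000033788, chromosome 6) encodes dysferlin, which brings vesicles to a membrane tear. It had 7.63 and 4.57 CPM in the fat pad, 56.5 and 79.2 CPM in the tendon, and 122 and 129 CPM in the rectus femoris. The tissues did not overlap. Its log2 fold change was -4.36 ± 0.33 between fat pad and rectus femoris (edgeR adjusted p = 7.62e-05), -3.48 ± 0.31 between fat pad and tendon (adjusted p = 0.000171) and -0.89 ± 0.29 between tendon and rectus femoris, where it was not called (adjusted p = 0.0602). Other genes on the opposite strand cover 5.49% of its exonic bases.

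Capn3 (ENSMUSG00000079110, chromosome 2) encodes calpain-3, a muscle protease that binds titin. It had 77 counts in each fat pad library, equal to 0.852 and 0.685 CPM, against 45.1 and 48.6 CPM in the tendon and 237 and 238 CPM in the rectus femoris. The tissues did not overlap, and the libraries of each tissue lay close together. Its log2 fold change was -8.27 ± 0.26 between fat pad and rectus femoris (edgeR adjusted p = 3.64e-05), -5.93 ± 0.23 between fat pad and tendon (adjusted p = 5.56e-05) and -2.34 ± 0.19 between tendon and rectus femoris (adjusted p = 0.00377). The last call was lost without rectus femoris library 2, at an edgeR adjusted p of 0.0511. Ganc, on the same strand, covers 7.69% of its exonic bases.

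Trim72 (ENSMUSG00000042828, chromosome 7) encodes MG53, which gathers at membrane tears and starts the repair patch. It had 0 counts in both fat pad libraries, against 173 and 167 CPM in the tendon and 320 and 289 CPM in the rectus femoris. A count of 0 allows up to 3 counts, which is 0.0332 and 0.0267 CPM in these libraries, covering counting error only. At that floor Trim72 was at least 10165-fold lower in the fat pad than in the rectus femoris and at least 5686-fold lower than in the tendon. The edgeR adjusted p was 3.64e-05 and 5.56e-05, from the fits and not from these bounds. All 13 fast-fibre markers had counts in both fat pad libraries, from 12 and 43 for Myh1 to 9960 and 12376 for Acta1. Whether the way the fat pad counts were made has a part in the 0 counts was not tested. Trim72 was 1 of 3 genes, of 16964, with no counts in either fat pad library and at least 1000 in each of the other 4 libraries. The other two were Fitm1 and Tceal5, and they were picked after their values were seen.

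The tendon over rectus femoris log2 fold change of Trim72 was -0.84 ± 0.20 (edgeR adjusted p = 0.0327), a call lost without rectus femoris library 2. The authors' TPM ran the other way for this gene, with 641 and 491 TPM in the tendon and 364 and 392 TPM in the rectus femoris. Gm15533, on the opposite strand, covers 27.6% of its exonic bases, and the strand setting of the counting is not stated in the labels, so its reads cannot be told apart from those of that gene.

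Ano5 (ENSMUSG00000055489, chromosome 7) encodes anoctamin-5, a membrane protein of the anoctamin family that is linked to membrane repair. It had 75 and 20 counts in the fat pad, equal to 0.830 and 0.178 CPM, against 47.8 and 199 CPM in the tendon and 420 and 534 CPM in the rectus femoris. The tissues did not overlap, and the spread was wide in the fat pad and the tendon. Its log2 fold change was -9.91 ± 1.11 between fat pad and rectus femoris (edgeR adjusted p = 0.000343) and -7.96 ± 1.04 between fat pad and tendon (adjusted p = 0.000689). Between tendon and rectus femoris it was -1.95 ± 0.78 and not called (edgeR adjusted p = 0.105), and without tendon library 2 it was -3.31 with an adjusted p of 0.0155.

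Levels were compared between genes per kilobase of union exon length. In the fat pad Sgcb led with a mean of 24.2 CPM per kilobase, and the next were Cav3 with 2.07, Dmd with 1.69 and Sgcd with 1.37. Sgca followed with 0.887, Dysf with 0.733, Capn3 with 0.153 and Ano5 with 0.0644. The libraries of Cav3 and Dmd overlapped, and so did those of Sgca and Dysf. Those of Sgcd, at 1.65 and 1.10, lay below those of Dmd, at 1.69 in each. Sgcd and Cav3 were nearly level in library 1, at 1.653 and 1.654. The authors' TPM in the fat pad also put Sgcb first, at 94.96 and 86.3 TPM, and Cav3 second, at 6.40 and 9.94 TPM. It differed for Sgcd, which at 5.61 and 3.85 TPM lay above Dmd, at 2.86 and 2.95 TPM. Sgca, at 1.04 and 1.14 TPM, lay above Dysf, at 0.358 and 0.222 TPM, with no overlap.

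In the tendon the order per kilobase was Trim72 with a mean of 76.2 CPM per kilobase, Sgca with 51.02, Sgcb with 30.3, Cav3 with 26.0 and Ano5 with 15.8. Capn3 had 9.33, Dysf 8.15, Dmd 5.91 and Sgcd 2.35. Sgcb overlapped Cav3, Ano5 overlapped Sgcb, Cav3, Capn3, Dysf and Dmd, and Capn3 overlapped Dysf. In the authors' TPM Sgca came lower in the tendon order, with 145 and 112 TPM, below Trim72 (641 and 491 TPM), Cav3 (218 and 195 TPM) and Sgcb (201 and 190 TPM). In the rectus femoris the order was Sgca with 158, Trim72 with 136, Sgcb with 64.1, Ano5 with 61.0, Cav3 with 57.8, Capn3 with 47.3, Dysf with 15.1, Dmd with 7.48 and Sgcd with 3.73 CPM per kilobase. Sgca overlapped Trim72, and Sgcb, Ano5 and Cav3 overlapped each other. TPM put Trim72 first there, with 364 and 392 TPM, then Sgcb, with 241 and 236 TPM, and then Sgca, with 194 TPM in each library.

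Each member was also set beside a relative from its family, per kilobase and within a library. The caveolin Cav3 had 1.65 and 2.48 CPM per kilobase in the fat pad, while the wider-made Cav1 stood at 187-fold and 92.0-fold that level. Cav1 over Cav3 was 9.15 and 3.68 in the tendon, and 1.08 and 1.56 in the rectus femoris. Dmd over Utrn, which encodes the dystrophin homologue utrophin, was 0.377 and 0.368 in the fat pad, 0.579 and 1.38 in the tendon, and 2.76 and 2.41 in the rectus femoris. The order of Dmd and Utrn in the tendon thus differed between its libraries.

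Dysf over Myof, which encodes the related ferlin myoferlin, was 0.700 and 0.509 in the fat pad, 1.31 and 2.56 in the tendon, and 9.14 and 10.4 in the rectus femoris. Capn3 over Capn2, a calpain found in most tissues, was 0.343 and 0.381 in the tendon and 2.58 and 2.71 in the rectus femoris, and Capn2 stood at 180-fold and 184-fold Capn3 in the fat pad. Ano5 over Ano6, a phospholipid scramblase, was 0.727 and 3.17 in the tendon and 7.997 and 9.09 in the rectus femoris. Sgca over Sgce was 0.0995 and 0.0841 in the fat pad, 11.3 and 23.0 in the tendon, and 105 and 83.8 in the rectus femoris. In every pair the rectus femoris libraries had the highest member share and the fat pad libraries the lowest.

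**Figure D4:**
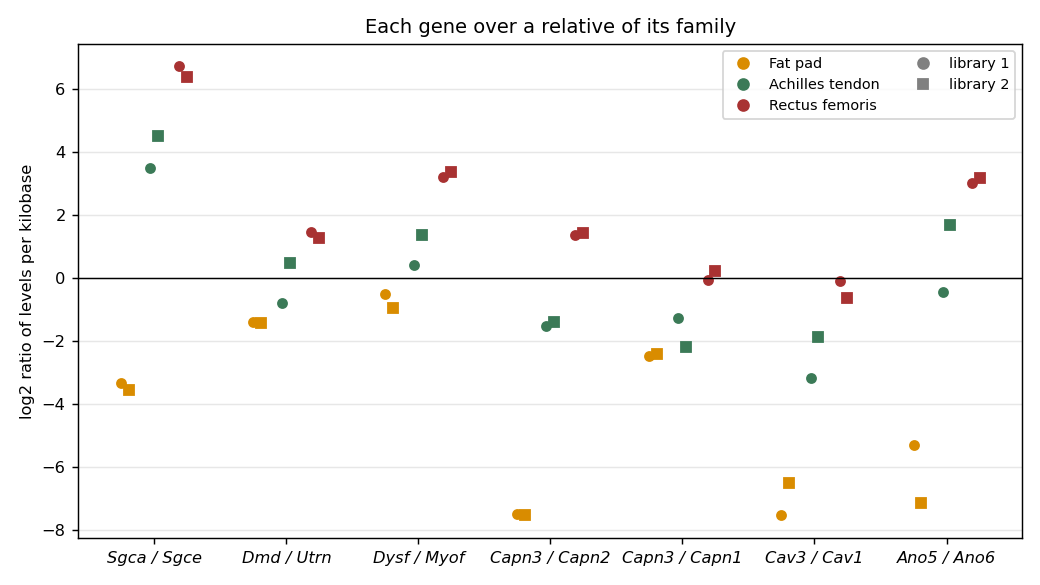
Log2 ratio of each gene to a relative of its family in each library (circles library 1, squares library 2), from CPM per kilobase of exon. The log2 ratio is below 0 for all 7 pairs in the fat pad, where Dmd over Utrn has log2 ratios of -1.41 and -1.44.

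The other genes of the dystrophin complex moved in both directions. Of 15 genes, 14 were in all tables and were tested. In the fat pad, 7 were lower and 4 higher than in the rectus femoris, against 29.6% and 29.8% of all genes. The median log2 fold change was -0.40, against 0.14 over all genes. With total counts the split was 7 lower and 7 higher, against 3420 and 6350 of all 15856 genes. Among the lower were Nos1 (-6.79 ± 0.96) and Dtna (-4.92 ± 0.38), which encode neuronal nitric oxide synthase and alpha-dystrobrevin. Dag1, the dystroglycan gene, was also lower, at -3.01 ± 0.22 (edgeR adjusted p = 7.18e-05), and so was Sspn, for sarcospan, at -1.20 ± 0.21 (adjusted p = 0.00243). Sgce was higher at 2.55 ± 0.20 (edgeR adjusted p = 9.32e-05). Sntb1, for beta-1-syntrophin, was higher at 1.80 ± 0.60 (edgeR adjusted p = 0.0367), a call lost without fat pad library 1 (adjusted p = 0.171) and without rectus femoris library 1 (adjusted p = 0.141).

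Against the tendon, 8 genes of this list were lower in the fat pad and 2 higher (31.4% and 27.2% over all genes), with a median of -0.96. Dag1 was at -2.56 ± 0.22 and Sgce at 1.66 ± 0.20. Between tendon and rectus femoris 3 were lower and 3 higher, against 12.7% and 13.3% of all genes. Under total counts 0 were lower and 5 higher, against 398 and 5969 of all 15856 genes. None of this list was called there without either rectus femoris library, and 0 lower and 2 higher were called without tendon library 1. Utrn was at 1.23 ± 0.31 between tendon and rectus femoris (edgeR adjusted p = 0.0321), a call lost in 5 of the 6 fits that left out 1 library, with an adjusted p of 0.0989 without tendon library 1, 0.195 and 0.0970 without rectus femoris library 1 or 2, and 0.0538 and 0.0555 without fat pad library 1 or 2. The replicate block gave it an edgeR adjusted p of 0.0600, and its fat pad values were 0.63 ± 0.31 over the rectus femoris (adjusted p = 0.118) and -0.60 ± 0.31 over the tendon (adjusted p = 0.137).

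Enzymes that build the laminin-binding sugar of dystroglycan made up a list of 14, of which 13 were tested. In the fat pad 6 were lower and 1 higher than in the rectus femoris, against 29.6% and 29.8% of all genes. The median log2 fold change was -0.42. B3galnt2 was among the lower (-3.97 ± 0.40), and Gmppb was higher (0.88 ± 0.22), a call lost without fat pad library 2 (edgeR adjusted p = 0.0586) and without rectus femoris library 1 or 2 (adjusted p = 0.0768 and 0.0749). Against the tendon 6 were lower and 3 higher (31.4% and 27.2% over all genes). Total counts gave 6 lower and 4 higher against the rectus femoris (3420 and 6350 of all 15856 genes).

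The list of 29 further membrane repair genes was split in direction. In the fat pad 9 were lower and 13 higher than in the rectus femoris, against 29.6% and 29.8% of all genes. The median log2 fold change was 0.08. Among the lower were Cavin4 (-9.52 ± 0.95), which encodes a muscle caveolar coat protein, Capn1 (-5.74 ± 0.42), Chmp4b (-4.65 ± 0.28), of the ESCRT-III membrane-cutting machinery, and Bin1 (-4.31 ± 0.42), which shapes T-tubules. The highest were the calcium-dependent membrane binders Anxa1 (4.59 ± 0.31), Anxa5 (3.80 ± 0.31) and Anxa4 (3.41 ± 0.21), and S100a11 (3.40 ± 0.24). Against the tendon 13 were lower and 10 higher in the fat pad (31.4% and 27.2% over all genes). In the tendon 2 were lower and 13 higher than in the rectus femoris, against 12.7% and 13.3% of all genes. Total counts gave 0 lower and 21 higher there, against 398 and 5969 of all 15856 genes. The count rested on single libraries: none of this list was called without either rectus femoris library, and 0 lower and 8 higher were called without tendon library 1.

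Within a tissue, library 2 was compared with library 1 as a log2 ratio of TMM-scaled counts, with an exact 95% interval for counting error only. In the fat pad 1 of 8 members differed at least 2-fold, where 14.6% of all genes did: Ano5 had 20 counts in library 2 and 75 in library 1, a ratio of -2.22 (-3.01 to -1.49). In the tendon 1 of 9 did, where 14.0% of genes did: Ano5 had 14447 counts in library 2 and 3710 in library 1, a ratio of 2.05 (2.00 to 2.11). In the rectus femoris none of 9 did, where 5.68% of genes did. The tendon ratios of the other members ran from -0.06 for Trim72 to 0.72 for Sgca.

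The tendon libraries also differed in their muscle markers. Fast-fibre markers had a median log2 ratio of 1.38 and 11 of 13 differed at least 2-fold, slow-fibre markers had a median of -0.84, and adipocyte markers had a median of -3.04. Schwann cell markers had a median of -3.38, and all 8 differed at least 2-fold, as did 6 of the 10 smooth muscle and pericyte markers, with a median of -1.16. The 11 fast markers and Ano5 were higher in library 2, the fast-fibre Myh2 was lower (-0.97), and all 9 slow-fibre, all 10 adipocyte and all 8 Schwann cell markers were lower. Whether these differences have a part in the Ano5 ratio was not tested. The TPM ratio of Ano5 in the tendon was -0.39, the opposite sign, and TPM turned the tendon ratio of 8 of the 9 members.

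**Figure D5:**
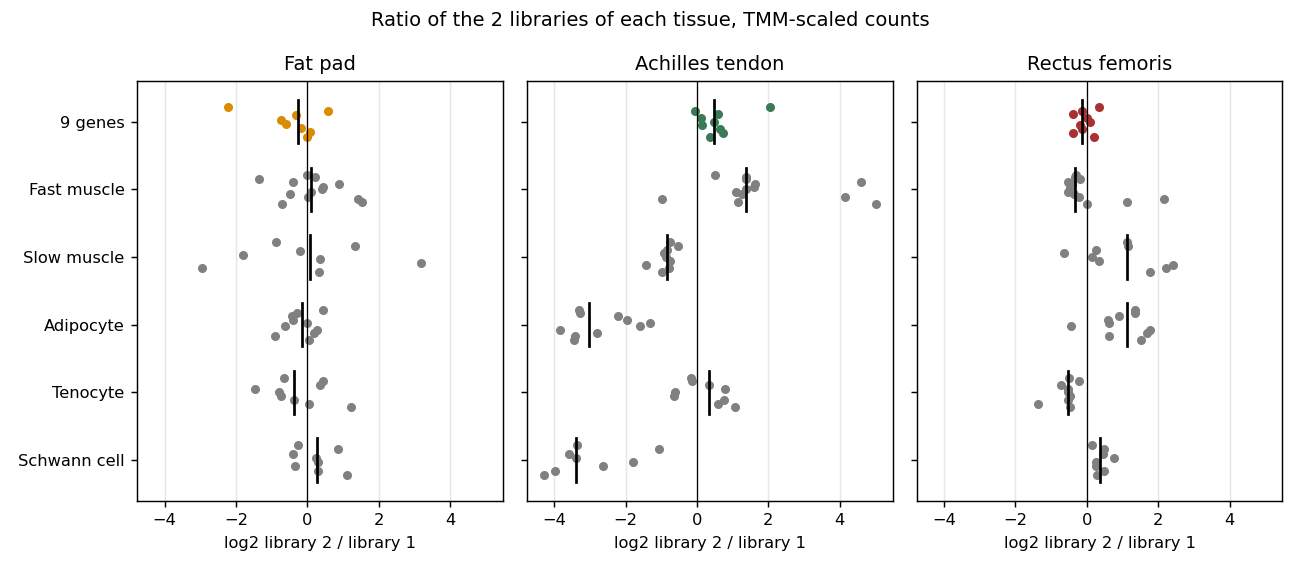
Log2 ratio of library 2 to library 1 in each tissue, from TMM-scaled counts, for the 9 genes (coloured points) and for 5 lists of cell type markers (grey points); each point is a gene and each vertical bar a median. Ano5 stands at 2.05 in the tendon and at -2.22 in the fat pad, and the other tendon ratios lie between -0.06 and 0.72.

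For each member, the 3 named genes with the nearest profile were found from log2 CPM over the 6 libraries, by root mean square distance after centring. Dmd was nearest to Hoxc4 (0.0652), Haus6 (0.0683) and Crkl (0.0748). Sgca was nearest to Cacnb1 (0.144), Pkia (0.145) and Mettl11b (0.186), and Sgcb to Acsl3 (0.0487), Hdgf (0.0685) and Egln2 (0.0752). Capn3 was nearest to Asb14 (0.308), Tmem38a (0.324) and Mettl21e (0.339), and Trim72 to Fitm1 (0.486), Hrc (0.554) and Myh1 (0.753). Ano5 was nearest to Lrrc38 (0.282), Asb12 (0.419) and Casq1 (0.460). Cav3 was nearest to Lonrf1 (0.117), Dysf to Zfp91 (0.107) and Sgcd to Adam9 (0.0678). Many genes share a shallow profile, and 6 libraries in 3 tissues separate few of them. Among the members themselves, the nearest pair was Sgcb and Sgcd at 0.294, and Capn3 and Sgca stood at 0.424.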

How the data were processed

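Messenger RNA was measured by RNA sequencing in 6 libraries, 2 for each of 3 tissues. The authors deposited whole-number counts per gene, TPM per gene, and log2 fold changes, p-values and −log10 p between the libraries of a tissue; the last 3 kinds were not used. The submitters' processing notes list GRCm39, DESeq2 1.4.5, RSEM 1.3.1 and Bowtie2, giving no roles. For the counting method, its strand setting and the annotation, nothing is given in the sources used here.

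Counts of the 16964 genes in all 3 tables were fitted with edgeR 4.0.16 (R 4.3.3, limma 3.58.1): TMM scaling, filterByExpr, quasi-likelihood test, 1 term per tissue over all 6 libraries, Benjamini-Hochberg adjustment over 15856 genes, threshold 0.05. DESeq2 1.42.0, limma on log2(TPM + 1) and other settings were alternatives. The common biological coefficient of variation was 0.336. The steps were tested on simulated data. Total counts per library were 83132413 and 106319037 for the fat pad, 59042675 and 62063826 for the tendon, and 56216295 and 58544836 for the rectus femoris. Intervals and floors cover counting error only. Exon lengths and overlaps came from GENCODE M21 and windows from RefSeq GRCm38.p6, while no coordinate was carried between builds. Gene symbols were read from the deposited TPM tables (18924 genes) or, failing that, a table of Ensembl names (1740).

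The members and lists were chosen with earlier results of these data known. All 9 members are named. From each pathway list, up to 4 called genes at each end of a comparison are named, with close relatives of a member. For each member the 3 genes nearest in profile were taken. Some genes of the pathway lists are counted but not reported here by name.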

Additional observations from a re-analysis of the deposited data

How the results depend on the processing

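Fat pad against rectus femoris gave 9 members called in every count setting and 8 of 8 in TPM, where Trim72 has no fat pad value used here. Fat pad against tendon gave 8, with 7 in the fit of those tissues alone and 7 to 8 with 1 library left out. Tendon against rectus femoris gave 5, against 2 with total counts, 3 with a replicate block, 2 with TPM at either pseudocount (1 or 0.1), 6 with DESeq2 size factors, 7 with DESeq2's Wald test, and 0 to 7 with 1 library left out; when an arm has 1 library, it is assumed to vary like the others. Why the calls move was not tested. Whether same-numbered libraries are paired is not stated in the labels. Their deviations correlated at 0.0343, -0.0712 and -0.388 over 9667 genes, which cannot decide it with 2 libraries per tissue. In comparisons with the fat pad the replicate block moved the number of calls by less than 1.5 times. A crossed block, chosen after seeing the data, gave 5 called between tendon and rectus femoris.

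Signs turned in 9 member fold changes. Sgcb between fat pad and tendon ran from -0.57 without tendon library 1 to 0.022 without tendon library 2. Between tendon and rectus femoris, total counts gave 0.37 for Dmd and 0.060 for Sgcd. There TPM with pseudocount 1 gave 0.36 for Dmd, 0.13 for Sgcd and 0.14 for Cav3, and with 0.1 gave 0.38, 0.14 and 0.14. Library 2 over library 1 ratios turned in the tendon with TPM: Dmd -0.30, Sgca -0.37, Sgcb -0.082, Sgcd -0.17, Dysf -0.21, Capn3 -0.50, Cav3 -0.16 and Ano5 -0.39. Total counts there gave -0.031 for Sgcd and -0.058 for Capn3. In the rectus femoris TPM gave -1.11 for Dmd, 0.00047 for Sgca, -0.52 for Dysf, 0.15 for Cav3, 0.11 for Trim72 and -0.18 for Ano5. Of the other member fold changes over all settings, 330 kept direction and call, 28 lost the call and 14 gained it. Total counts also moved the split of all genes, to 6350 higher and 3420 lower between fat pad and rectus femoris (4728 and 4698 with TMM) and to 5969 higher and 398 lower between tendon and rectus femoris (2110 and 2017). TPM gave 2990 higher and 5809 lower between fat pad and rectus femoris, 1550 higher and 8056 lower between fat pad and tendon, and 4202 higher and 504 lower between tendon and rectus femoris. The 2 libraries a tissue limit the precision to the standard errors given.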

Other observations

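Among the members and the 3 pathway lists, the tendon ratios of library 2 to library 1 were highest for Nos1 (log2 2.56) and Ano5 (2.05). Nos1 encodes the neuronal nitric oxide synthase held at the muscle membrane. Of the 13 fast-fibre markers the highest ratios were 5.02 for Myh4, 4.60 for Pvalb and 4.14 for Actn3, and Myh2 was lower in the same library, with 228832 counts in library 2 and 479509 in library 1 (log2 -0.97). Utrn had -0.90. Slow-fibre Myh7 had -0.97. TPM gave the opposite sign for all 3 of Ano5 (-0.39), Nos1 (-0.63) and Myh4 (-2.31).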
